A study of Mus musculus with 40 samples.

Results

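Imprinted genes outside the Dlk1-Dio3 cluster were followed across mouse embryonic stem cells that lacked the corepressors Ctbp1 and Ctbp2, the transcription factor Dux, the chromatin factor Dppa2 or Pramel7, or that overexpressed Pramel7. The members were 50 gene symbols listed by name, not by a rule on their values in these libraries. Earlier results of these data were known when the list was chosen. Each of the 3 count tables held 49 of the 50, Nespas being the one not among the symbols. Of these, 46 passed the filter on low counts in each table, among 21193, 20161 and 20612 genes tested. Airn, Rasgrf1 and Kcnk9 did not pass it, and their highest level in any library was 0.34, 0.342 and 0.173 CPM (counts-per-million of the TMM-scaled library size). The 50 were split by textbook knowledge into 27 genes expressed from the paternal allele, 20 expressed from the maternal allele and 3 (Gnas, Blcap, Herc3) left in neither list because the expressed allele depends on isoform or tissue. Some members of both lists are known to be imprinted only in placenta or brain, so the lists need not give the allele expressed in these cells. The tables give no allele, so every value is a total over both alleles.

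Many, but not all, imprinted genes are expressed from one parental allele because the germ line of one parent methylated a control region that the other left bare. After fertilisation the mark is kept through replication by DNMT1 with UHRF1, and at many control regions by the zinc-finger protein ZFP57, which recruits TRIM28 and SETDB1 to a methylated hexamer. In embryonic stem cells such marks can be lost or gained in culture. Many imprinted genes act on growth: the growth factor gene Igf2 and its neighbour H19, the adaptor Grb10, the cell cycle inhibitor Cdkn1c and the placental growth restrainer Phlda2 belong to the best known domains.

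The sequences below lie before the RefSeq start of members that the results turn on. They are the 100 bases before the start, on the gene's strand, for the members listed as paternally expressed that rose with Pramel7 overexpression and have an entry in the promoter table, and for Grb10, which fell with it. The set was picked after the values were seen. Where a gene has several starts, the window with most CpG is shown. They are of the RefSeq reference strain on build GRCm38.p6, which is not the strain of the cell line. Capitals mark the hexamer TGCCGC or its complement GCGGCA, the letters that ZFP57 is known to bind when methylated.
Plagl1: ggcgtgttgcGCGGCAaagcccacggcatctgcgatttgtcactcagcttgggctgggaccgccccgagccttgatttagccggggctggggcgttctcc
Mest: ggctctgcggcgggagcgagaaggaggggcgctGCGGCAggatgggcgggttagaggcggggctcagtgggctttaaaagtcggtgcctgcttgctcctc
Nap1l5: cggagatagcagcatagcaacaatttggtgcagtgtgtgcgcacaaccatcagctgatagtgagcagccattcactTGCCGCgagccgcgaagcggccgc
Zrsr1: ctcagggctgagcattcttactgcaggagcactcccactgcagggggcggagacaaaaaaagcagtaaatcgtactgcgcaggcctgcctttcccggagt
Kcnq1ot1: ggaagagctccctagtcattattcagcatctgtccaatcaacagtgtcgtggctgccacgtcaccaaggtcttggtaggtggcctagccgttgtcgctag
Grb10: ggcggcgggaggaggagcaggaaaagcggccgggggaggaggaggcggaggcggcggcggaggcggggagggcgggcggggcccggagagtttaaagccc

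The stretches lie at chr10:13090732-13090831 (Plagl1, plus strand), chr6:30737950-30738049 (Mest, plus), chr6:58907127-58907226 (Nap1l5, minus), chr11:22971905-22972004 (Zrsr1, plus), chr7:143296548-143296647 (Kcnq1ot1, minus) and chr11:12037421-12037520 (Grb10, minus). The hexamer begins at position -90 before Plagl1, -67 before Mest and -24 before Nap1l5, counting -1 as the base before the start. It was not among these letters for Zrsr1, Kcnq1ot1 and Grb10, and the window of Grb10 holds it at position 25 after the start, beyond the bases printed. Searched on both strands, it was present in 11.6% of all 32851 promoter windows of 250 bases before and 50 after a start, and in 14 of the 59 windows of members (23.7%). The hexamer itself holds a CpG, and these shares were not matched for CpG content. All windows held a median of 7 CpG, and the windows of the genes shown held from 9 (Kcnq1ot1) to 45 (Grb10). Snrpn and Snurf share a window that was counted for each, and counted windows of Mest nearly coincide. The windows cover 39 of the 50 members, and H19, Peg13, Peg10 and Cdkn1c are among the 11 without an entry. These matches describe the letters and were not set against the expression values by a test.

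The cells were E14tg2a, an established mouse embryonic stem cell line, grown with serum and leukaemia inhibitory factor, and 34 RNA libraries were analysed in 3 tables that were compared only within themselves. In the first, the genotype table, there are 2 libraries each of WT, CtbpDKO (Ctbp1 and Ctbp2 knocked out), DuxKO, Ctbp-Dux TKO (the same with Dux knocked out as well), Dppa2KO and DKO-Dppa2 cells. The last pair carries 2 labels that disagree, one naming a Dppa2 and Dux triple knockout and one a CtbpDKO with Dppa2 knocked out. The second was used, and those libraries held 4 and 0 counts of Ctbp1. The Pramel7 table holds 4 WT libraries (numbered 3 to 6) and 2 libraries each of DuxKO (3 and 4), P7OE (Pramel7 overexpression), DuxKO-P7OE (the same in DuxKO cells) and P7KO (Pramel7 knocked out) cells. The time course table holds 2 libraries each of CtbpDKO cells labelled Dox at day 0, 3, 9, 12 and 18. The labels do not say which cells received doxycycline for how long. No label gives the clone, guide or promoter of an allele or transgene, and none says that the libraries of a group came from separate cultures, so p-values measure only the spread between these libraries. The 6 bisulfite libraries of the series were not analysed here.

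Library totals ran from 10123058 to 36025046 counts, and 3 counts corresponded to between 0.0826 and 0.289 CPM. Structural RNA genes, such as 7SK and ribosomal RNA, took 8.92% to 26.62% of a library's counts. WT libraries had 1911 and 2109 counts of Ctbp1, CtbpDKO libraries 1 and 2, and those of Ctbp-Dux TKO 2 and 4. Ctbp2 kept 1429 and 1568 counts in CtbpDKO libraries against 6293 and 6591 in WT libraries. Duxf3, the Dux gene of the tables, was counted 40 and 24 times in CtbpDKO libraries, 1 and 0 times in WT libraries, and not at all elsewhere in the genotype table, so it cannot check the DuxKO label. Dppa2 kept 1208 and 1027 counts in Dppa2KO against 1707 and 1868 in WT libraries, and 426 and 464 in DKO-Dppa2 against 2947 and 3628 in CtbpDKO libraries. Pramel7 held 435 and 431 counts in P7OE, 537 and 588 in DuxKO-P7OE and 2 to 4 in WT libraries, a level too low to check P7KO. The genotype table also held 67 and 79 counts of it in CtbpDKO libraries, 30 and 42 where Dux was missing too, 4 and 6 in DKO-Dppa2 and 0 to 2 in the other libraries. In the time course Ctbp2 held 1184 and 1328 counts at day 0, 11119 and 11231 at day 3, 8466 and 6774 at day 9, 866 and 1268 at day 12 and 926 and 1646 at day 18.

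The markers of embryonic stem cells were present throughout, with a summed level of 1390 to 2760 CPM. Markers of primitive or visceral endoderm moved with several results below. Their 7 genes summed to 25.3 to 30 CPM in WT, 32.8 to 35.6 in CtbpDKO, 6.45 to 6.56 in DuxKO, 119 to 124 in Ctbp-Dux TKO, 14.3 to 17.7 in Dppa2KO and 9.92 to 10.5 in DKO-Dppa2 libraries. Among Pramel7 libraries they summed to 6.58 to 8.48 CPM in WT, 7 to 8 in DuxKO, 4.98 to 7.64 in P7KO, 69 to 73.6 in P7OE and 62.7 to 68.6 in DuxKO-P7OE libraries. Dab2 made up most of that sum, at 70.1 to 78.9 CPM in Ctbp-Dux TKO and 40.4 to 45.8 CPM in P7OE libraries, whereas Afp, a marker of mature visceral endoderm, was at 0 in WT, CtbpDKO, DuxKO, Dppa2KO, DKO-Dppa2, P7KO and DuxKO-P7OE libraries. Trophoblast markers (8 genes) were higher in each group without Ctbp, at 32.6 to 33.7 CPM in CtbpDKO against 19.2 to 19.6 in WT, 31.2 to 33.2 in Ctbp-Dux TKO against 21.3 to 22.7 in DuxKO, and 48.6 to 48.8 in DKO-Dppa2 against 13.1 in Dppa2KO. The 7 markers of mesenchyme or feeder cells were higher there as well, at 11.3 to 11.6 against 1.74 to 2.18, 7.41 to 8.86 against 1.06 to 1.5, and 4.01 to 4.62 against 0.709 to 0.936 CPM, with 3 to 6 of them at 3 counts or fewer in each group without Ctbp. Their part in the results on Ctbp loss below was not tested. In bulk RNA, a change in the number of cells of a type and a change in RNA per cell cannot be told apart.

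A group of 4 members moved one way with both loss of Ctbp and gain of Pramel7. H19, Peg13 and Zrsr1 rose and Grb10 fell in each of 5 comparisons that share no library: CtbpDKO against WT, Ctbp-Dux TKO against DuxKO, DKO-Dppa2 against Dppa2KO, P7OE against WT and DuxKO-P7OE against DuxKO. These were 4 of the 46 members (8.7%), singled out after their values were seen. Among all 19516 genes tested in both tables, 243 were called in one direction in each of the 5 (1.25%), of which 172 rose and 71 fell.

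H19 is a long noncoding RNA expressed from the maternal allele at chr7:142575530-142578146. It read 0.134 and 0.0326 CPM in WT and 16.5 and 10.5 CPM in CtbpDKO libraries. In DuxKO cells it read 0.204 and 0.133 CPM, and in Ctbp-Dux TKO cells 25.8 and 25.2 CPM. Each group without Ctbp lay far above its partner, with no overlap. From summed counts, the level in CtbpDKO was 161 times that in WT (95% exact binomial interval 68.9 to 498, counting error only), resting on 5 counts in WT, and the level in Ctbp-Dux TKO 151 times that in DuxKO (82 to 316). edgeR's quasi-likelihood test gave log2 fold changes of 7.28 (SE 0.37, Benjamini-Hochberg adjusted p = 1.6e-08) and 7.21 (SE 0.33, edgeR adjusted p = 3.29e-09).

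Without Dppa2 the rise of H19 was smaller. Dppa2KO libraries read 0.165 and 0.17 CPM and DKO-Dppa2 libraries 3.01 and 3.01 CPM, a ratio of 17.9 (9.92 to 35.6). The log2 fold change was 4.13 (SE 0.36, edgeR adjusted p = 2.36e-06). The test of the difference from the effect in WT gave -3.14 on the log2 scale (SE 0.74, edgeR adjusted p = 0.0203), and this call was lost without WT replicate 2 or without either Dppa2KO replicate, at adjusted p up to 0.0927.

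Pramel7 overexpression raised H19 as well. WT libraries 3 to 6 read 1.93, 1.33, 0.731 and 0.728 CPM, and P7OE libraries 29.8 and 21.1 CPM. The log2 fold change was 4.42 (SE 0.30, edgeR adjusted p = 3.2e-06), and was 3.92 against WT 3 and 4 and 5.1 against WT 5 and 6. H19 was at 0 in both DuxKO libraries of that table, at least 7.03-fold lower than in WT taking 3 counts a library as the limit, and read 32.3 and 28.5 CPM in DuxKO-P7OE libraries, at least 181-fold higher than in DuxKO. P7KO libraries read 0.44 and 0.557 CPM, below every WT library. This was not a call against all 4 (log2 -1.25, edgeR adjusted p = 0.0861) or against WT 5 and 6 alone (-0.56, edgeR adjusted p = 0.334). It was one against WT 3 and 4 alone (-1.74, edgeR adjusted p = 0.0019).

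**Figure D1:**
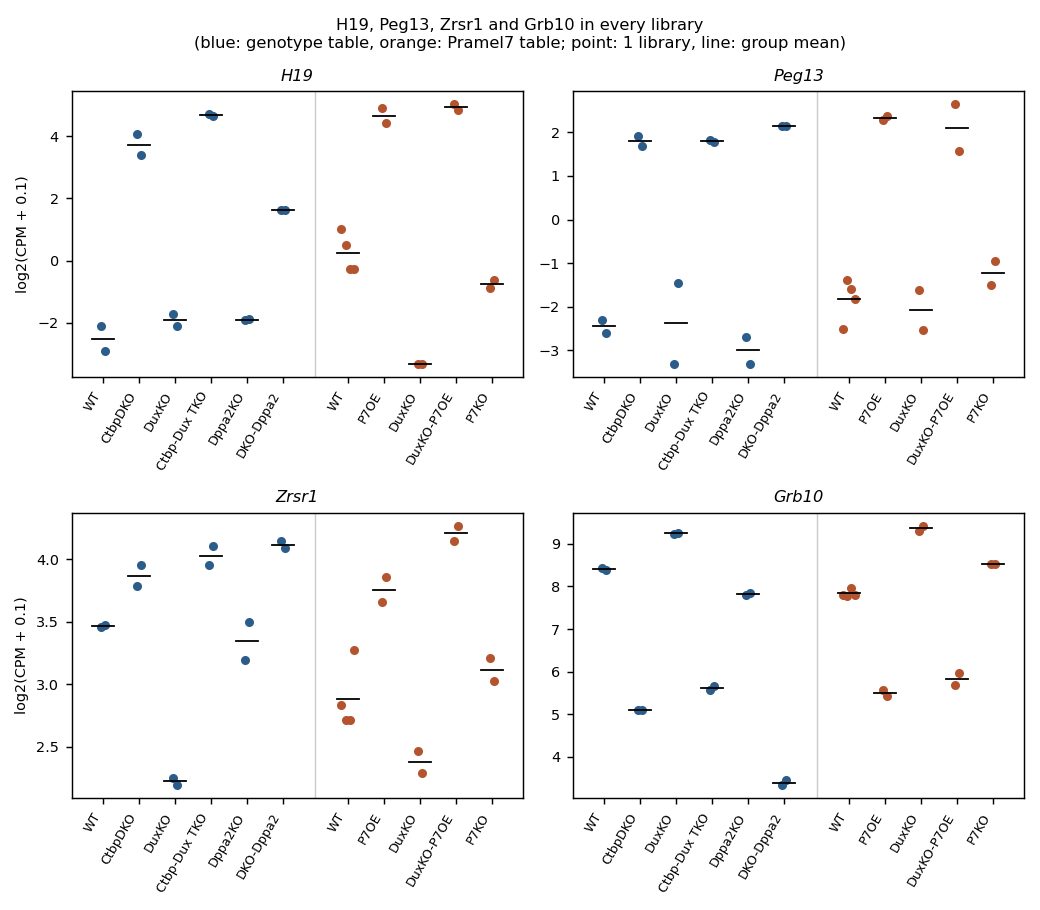
Levels of H19, Peg13, Zrsr1 and Grb10 as log2(CPM + 0.1) in each library of the genotype table (blue) and the Pramel7 table (orange), with a line at the mean of each group; vertical ranges differ between panels. In the 5 pairs with and without Ctbp loss or Pramel7 overexpression, H19, Peg13 and Zrsr1 lie higher and Grb10 lower in every library of the altered group.

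Peg13, a paternally expressed long noncoding RNA at chr15:72805602-72810324 inside the gene Trappc9, went from near 0 to a few CPM. It read 0.101 and 0.0652 CPM in WT and 3.69 and 3.13 CPM in CtbpDKO libraries, 0 and 0.266 in DuxKO and 3.47 and 3.33 in Ctbp-Dux TKO libraries. Dppa2KO libraries read 0.0551 and 0, and those of DKO-Dppa2 4.36 and 4.36. The ratios of summed counts were 41.1 (17.3 to 128), 25.2 (12.5 to 59.2) and 156 (42.6 to 1298). Its fitted log2 changes, with edgeR adjusted p of 4.33e-05, 4.59e-05 and 9.66e-06, depend on the prior count because the partners hold 8 counts or fewer. In P7OE libraries it read 4.78 and 5.11 CPM against 0.0757 to 0.281 in WT (log2 4.65, SE 0.45, edgeR adjusted p = 2.17e-05). In DuxKO-P7OE libraries it read 6.15 and 2.89 CPM against 0.224 and 0.0715 in DuxKO (edgeR adjusted p = 0.000171). Trappc9, whose span holds Peg13, fell in CtbpDKO against WT (log2 -0.63, SE 0.11) and rose in P7OE against WT (0.59, SE 0.11), so the host gene moved in opposite directions where Peg13 rose in both.

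Zrsr1, a retrogene for a splicing factor at chr11:22972005-22976496 within an intron of Commd1, moved less. WT libraries read 10.9 and 11 CPM and CtbpDKO libraries 13.7 and 15.4 CPM (log2 0.41, SE 0.13, edgeR adjusted p = 0.0325), a call that was lost with DESeq2, without the low-count filter and without any one of the 4 libraries, at adjusted p up to 0.199. DuxKO libraries read 4.66 and 4.46 CPM and Ctbp-Dux TKO libraries 15.4 and 17.1 CPM (log2 1.84, SE 0.14, edgeR adjusted p = 3.66e-07). Zrsr1 also rose in DKO-Dppa2 against Dppa2KO (log2 0.77, SE 0.13, edgeR adjusted p = 0.000631). In the Pramel7 table it read 6.47 to 9.55 CPM in WT and 12.5 and 14.4 in P7OE libraries (log2 0.86, SE 0.18, edgeR adjusted p = 0.00455, lost at 0.0636 without P7OE replicate 2). DuxKO-P7OE libraries read 17.6 and 19.2 CPM against 5.43 and 4.79 in DuxKO (log2 1.85, SE 0.22, edgeR adjusted p = 0.000116). The gap was widest where Dux was missing, and the difference of the Ctbp effects was 1.42 (SE 0.19, edgeR adjusted p = 0.000247). Commd1 fell in Ctbp-Dux TKO against DuxKO (log2 -0.76, SE 0.09), opposite to Zrsr1.

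Grb10, an adaptor that restrains insulin and growth factor signalling and is maternally expressed outside neurons, spans chr11:11930499-12037428. It read 345 and 337 CPM in WT and 34.3 and 34.4 CPM in CtbpDKO libraries (log2 -3.31, SE 0.09, edgeR adjusted p = 8.14e-11). DuxKO libraries read 603 and 611 CPM and Ctbp-Dux TKO libraries 47.3 and 50.9 CPM (log2 -3.63, SE 0.09, edgeR adjusted p = 2.81e-11). The lowest values of the genotype table were the 9.97 and 10.8 CPM of DKO-Dppa2, against 224 and 229 CPM in Dppa2KO (log2 -4.44, SE 0.10, edgeR adjusted p = 4.51e-12). Grb10 fell further without Dppa2 than with it, by 1.14 on the log2 scale (edgeR adjusted p = 0.000176). P7OE libraries read 47.2 and 42.8 CPM against 220 to 249 in WT (log2 -2.35, SE 0.14, edgeR adjusted p = 5.27e-07), and DuxKO-P7OE libraries 51.5 and 62.3 CPM against 633 and 689 in DuxKO (log2 -3.54, SE 0.16, edgeR adjusted p = 5.04e-08). Dux loss raised Grb10 in both tables, by log2 0.83 (SE 0.08) and 1.53 (SE 0.12), and P7KO raised it by 0.69 (SE 0.12).

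The summed endoderm markers were higher, as H19 was, in 4 of these 5 comparisons and lower in DKO-Dppa2 than in Dppa2KO libraries, where H19 still rose. In the time course they went from 15.9 to 19.1 CPM at day 0 to 58.2 to 67.4 CPM at day 18, while H19 read 4.43 and 4.2 CPM and then 3.23 and 2.79 CPM. Within the Pramel7 table all 7 markers lay above every WT library in both P7OE libraries, Afp at 1 and 6 counts against 0 in WT. Their part in the changes of H19, Peg13, Zrsr1 and Grb10 was not tested.

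Over the members as a list, loss of Ctbp from WT cells was marked by both directions at once. Of 46 members 11 rose and 8 fell in CtbpDKO against WT, where 14.7% of all genes tested rose and 11.4% fell. The members' median log2 fold change was 0.02 against 0.01 for all genes. Of 24 members listed as paternally expressed and tested 8 rose and 3 fell, and of 19 listed as maternally expressed 3 rose and 4 fell, so neither list moved one way. Beside the 4 genes above, Sfmbt2, Gab1, Peg10, Sgce and Ascl2 rose and Cdkn1c and Gnas fell by 1 log2 unit or more. The rise of Ascl2, from 0.403 and 0.424 to 1.16 and 1.09 CPM (edgeR adjusted p = 0.0395), was lost without any one of the 4 libraries. The count of 19 called members was 12 without WT replicate 1.

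Adding Ctbp loss to DuxKO cells moved more members than any other comparison here. In Ctbp-Dux TKO against DuxKO 17 rose and 10 fell, beside 21.4% and 19.6% of all genes, and their median log2 fold change was 0.46 against 0.04 for all genes. Among the paternally expressed members 10 rose and 3 fell (median 0.58), and among the maternally expressed ones 7 rose and 6 fell (0.21). In DKO-Dppa2 against Dppa2KO 10 rose and 11 fell, beside 15.2% and 15.2% of all genes. The effect of Ctbp loss differed with and without Dux for 15 members, 11 of them shifted up in DuxKO cells, where 19.5% of all genes differed. It differed with and without Dppa2 for 7 members, where 8.23% of all genes did. In Ctbp-Dux TKO against CtbpDKO 8 rose and 1 fell (3.6% and 4.54% of all genes), and the 9 calls were 5 without CtbpDKO replicate 1 or Ctbp-Dux TKO replicate 1 and 4 without CtbpDKO replicate 2. In DKO-Dppa2 against CtbpDKO 2 rose and 13 fell (5.75% and 9.67% of all genes), and the 15 calls were 7 without CtbpDKO replicate 1 and 9 without DKO-Dppa2 replicate 2.

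Dux loss alone was compared with WT in both tables. Among genotype libraries 9 members rose and 10 fell (7.94% and 9.56% of all genes), and among Pramel7 libraries 11 rose and 10 fell (7.76% and 8.91%). The 2 comparisons share no library, and 11 members moved the same way in both, which is 57.9% of the 19 called in the first and 52.4% of the 21 called in the second. Among all genes 1101 did so, 30.1% and 33.2% of those called. The 11 were Sgce, Mest, Igf2, Plagl1, Grb10 and Slc38a4, which rose, and Cdkn1c, Slc22a18, Phlda2, Gab1 and Impact, which fell. Kcnq1ot1 went down in the first table and up in the second. Without DuxKO replicate 4 the count of 21 was 11.

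Dppa2 loss moved 3 members up and 9 down against WT (7.67% and 8.69% of all genes). Pramel7 overexpression raised 10 and lowered 8 in WT cells (11% and 8.9%), with a median of 0.08 against -0.01 for all genes, and raised 14 and lowered 5 in DuxKO cells (11.6% and 9.83%). The 18 calls of the first were 9 without P7OE replicate 1, 8 without P7OE replicate 2 and 11 when only P7OE and WT libraries were fitted, and the 19 calls of the second were 12 without DuxKO replicate 4. The effect of Pramel7 differed with and without Dux for 13 members, where 7.5% of all genes differed, and for 8 without DuxKO replicate 4 or DuxKO-P7OE replicate 2. Pramel7 knockout raised 6 and lowered 9 (3.93% and 5.55%), and the 15 calls were 9 without P7KO replicate 1. Members called under both CtbpDKO and P7OE against WT moved the same way in 4 cases, the genes above, and opposite ways in 6: Sfmbt2, Igf2, Ascl2, Phlda2, Trappc9 and Igf2r. Over all genes 921 were called the same way and 673 opposite ways.

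**Figure D2:**
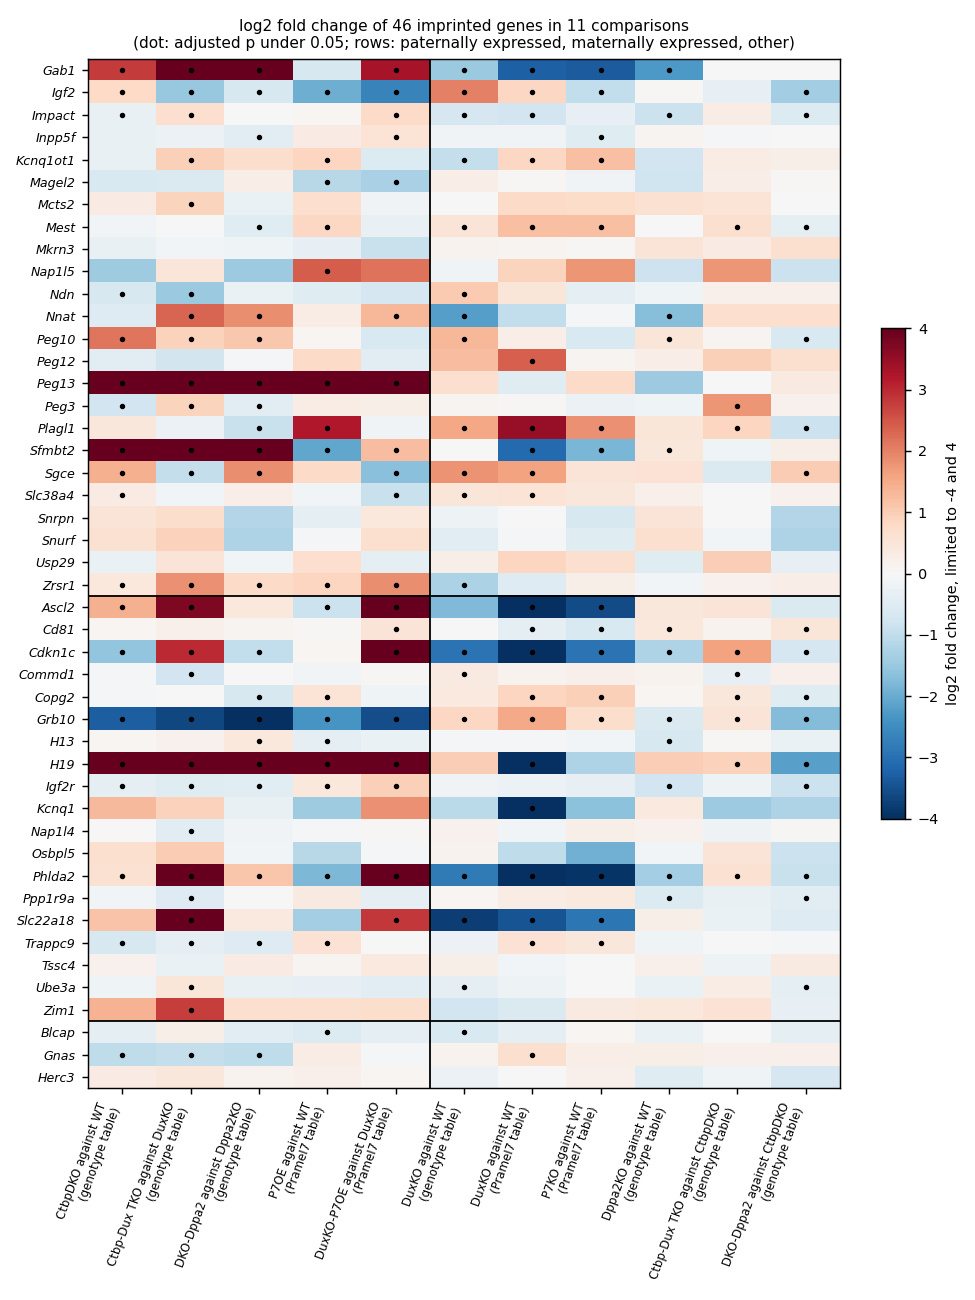
log2 fold change (colour, limited to -4 and 4) of the 46 members tested, in rows by parental allele, over 11 comparisons in columns; a dot marks an adjusted p under 0.05. Left of the vertical line are the 5 comparisons in which H19, Peg13 and Zrsr1 are dotted red and Grb10 dotted blue throughout; right of it, Cdkn1c and Phlda2 are dotted blue in the DuxKO and P7KO columns.

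The Kcnq1ot1 domain on chromosome 7 gave the second pattern. Kcnq1ot1 is a long noncoding RNA that silences its neighbours on the paternal chromosome, and Cdkn1c, Phlda2, Ascl2 and Slc22a18 are expressed from the maternal one. Cdkn1c, Phlda2 and Slc22a18 fell in DuxKO cells of both tables and in P7KO cells, and Ascl2 in the DuxKO and P7KO cells of the Pramel7 table. All 4 rose over DuxKO when Ctbp was missing as well or Pramel7 was overexpressed.

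Cdkn1c, an inhibitor of cyclin-dependent kinases, read 29 and 29.4 CPM in WT, 3.84 and 3.72 in DuxKO and 10.8 and 8.86 in CtbpDKO libraries. Ctbp-Dux TKO libraries read 29.4 and 30.2 CPM. It fell with loss of Dux (log2 -2.95, SE 0.14, edgeR adjusted p = 6.34e-08) and with loss of Ctbp (-1.57, SE 0.12, edgeR adjusted p = 8.78e-07), and with both missing it read as in WT. The Ctbp effect differed with and without Dux by 4.54 (SE 0.18, edgeR adjusted p = 3.54e-08). Dppa2KO libraries read 12.1 and 12.7 CPM (log2 -1.24, SE 0.12, edgeR adjusted p = 3.49e-05) and DKO-Dppa2 libraries 5.71 and 6.74 CPM. The Pramel7 libraries of Cdkn1c read 71.5 to 101 CPM in WT, 3.47 and 3.61 in DuxKO (log2 -4.63, SE 0.18, edgeR adjusted p = 3.97e-08) and 10.5 and 12.3 in P7KO libraries (-2.95, SE 0.16, edgeR adjusted p = 3.37e-07). DuxKO-P7OE libraries read 80 and 86.3 CPM (log2 4.55 over DuxKO, SE 0.19, edgeR adjusted p = 5.04e-08), within the range of WT, and P7OE libraries 95.7 and 92 CPM.

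Phlda2, which restrains placental growth, read 5.1 and 4.5 CPM in WT, 0.68 and 0.665 in DuxKO and 1.65 and 2.07 in Dppa2KO libraries, and Ctbp-Dux TKO libraries read 12.3 and 10.2 CPM. It fell in DuxKO (log2 -2.83, SE 0.23, edgeR adjusted p = 4.47e-06) and Dppa2KO (-1.37, SE 0.20, edgeR adjusted p = 0.000627), and was higher in Ctbp-Dux TKO than in DuxKO by 4.06 (SE 0.23, edgeR adjusted p = 1.87e-08). In CtbpDKO it read 7.59 and 7.15 CPM (log2 0.62, SE 0.18, edgeR adjusted p = 0.0214), a call lost without any one library. In the Pramel7 table it read 11.5 to 16.3 CPM in WT, 0.447 and 0.572 in DuxKO, 0.911 and 0.94 in P7KO, 3.58 and 4.56 in P7OE and 9.26 and 9.06 in DuxKO-P7OE libraries. All 4 altered groups lay below WT, and Pramel7 overexpression lowered Phlda2 in WT cells (log2 -1.80, SE 0.20, edgeR adjusted p = 6.31e-05) and raised it in DuxKO cells (4.13, SE 0.28, edgeR adjusted p = 1.06e-06).

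Ascl2, a transcription factor required for trophoblast, stood at 3.35 to 4.85 CPM in WT libraries 3 to 6 and at 0.112 and 0.0715 in DuxKO, 2 counts in each. P7KO libraries read 0.251 and 0.452 CPM (log2 -3.59, SE 0.34, edgeR adjusted p = 3.62e-05), P7OE libraries 2.52 and 2.13 (-0.86, edgeR adjusted p = 0.0376, lost under 8 of 15 alternatives) and DuxKO-P7OE libraries 3.58 and 3.66. In the genotype table it read 0.403 and 0.424 CPM in WT, 0.102 and 0.133 in DuxKO and 1.95 and 1.29 in Ctbp-Dux TKO libraries. Slc22a18, a transporter, fell in DuxKO in both tables, with edgeR adjusted p of 0.01 and 0.00334 at 3 counts or fewer in a DuxKO library, and in P7KO (log2 -2.90, SE 0.59, edgeR adjusted p = 0.00779). Ascl2 is also one of the 8 trophoblast markers used here, which summed to 34.4 to 58.1 CPM in WT, 41.8 to 44.3 in DuxKO and 30.2 to 30.4 in P7KO libraries. The trophoblast list as a whole was within the WT range in DuxKO and below it in P7KO libraries, and its part in the Ascl2 result was not tested.

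**Figure D3:**
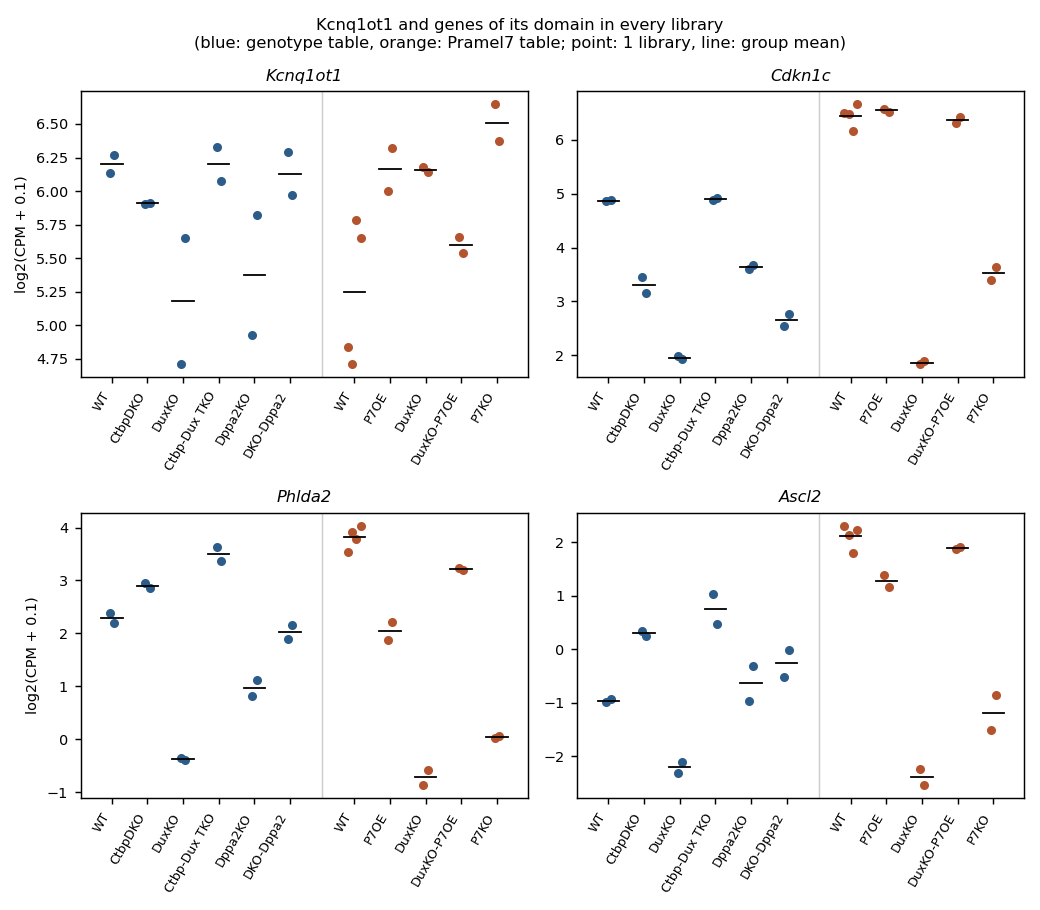
Levels of Kcnq1ot1, Cdkn1c, Phlda2 and Ascl2 as log2(CPM + 0.1) in each library of the genotype table (blue) and the Pramel7 table (orange), with a line at the group mean. Cdkn1c and Phlda2 lie lowest in both DuxKO groups, and Ascl2 in the DuxKO groups of both tables, while Ctbp-Dux TKO and DuxKO-P7OE libraries lie near or above WT for these 3 genes, except Phlda2 in DuxKO-P7OE cells, which lies between DuxKO and WT.

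Kcnq1ot1 itself, at chr7:143213111-143296547 and inside Kcnq1, ran opposite to Cdkn1c and Phlda2 in DuxKO and P7KO of the Pramel7 table and with them in DuxKO of the genotype table. It read 26.1 and 50.2 CPM in DuxKO against 70 and 77.1 in WT libraries of the genotype table (log2 -0.95, SE 0.28, edgeR adjusted p = 0.031), with a wide gap between the DuxKO libraries. This value ran from -1.49 to -0.55 when a library was left out, and DESeq2 made no call. In the Pramel7 table WT libraries 3 and 4 read 28.5 and 26.1 CPM and WT 5 and 6 read 55.1 and 50.1 CPM, so the WT libraries formed 2 pairs. Kcnq1ot1 rose against all 4 in DuxKO (log2 0.84, edgeR adjusted p = 0.0379), P7OE (0.85, edgeR adjusted p = 0.0305) and P7KO (1.19, SE 0.25, edgeR adjusted p = 0.00884). DuxKO-P7OE libraries read 50.4 and 46.5 CPM against 72.3 and 70.4 in DuxKO (-0.56, edgeR adjusted p = 0.205), and the effects of Pramel7 with and without Dux differed by -1.41 (edgeR adjusted p = 0.0469, lost in 7 of the 10 fits that left out a library). Of the left-out libraries, P7KO replicate 1 ended the call in P7KO, WT 3 or either P7OE library that in P7OE, and WT 3, WT 4 or either DuxKO library that in DuxKO. Against WT 5 and 6 alone these changes were 0.42, 0.43 and 0.79, and against WT 3 and 4 alone 1.34, 1.35 and 1.72. Cd81, a tetraspanin gene of the domain, fell in DuxKO (log2 -0.38) and P7KO (-0.61) of that table, and Tssc4 and Osbpl5 were called in none of the 16 comparisons.

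Igf2, the paternally expressed growth factor next to H19, moved opposite to H19 in 5 of the 7 comparisons that called both genes. These were Ctbp-Dux TKO against DuxKO, DKO-Dppa2 against Dppa2KO, and DuxKO, P7OE and DuxKO-P7OE of the Pramel7 table, some of which share libraries. Both genes rose in CtbpDKO against WT and both fell in DKO-Dppa2 against CtbpDKO. Igf2 rose in both DuxKO groups, from 4.8 and 4.24 CPM in WT to 18.5 and 17.8 in the genotype table (log2 2.00, SE 0.15, edgeR adjusted p = 2.08e-06) and from 12.4 to 15.8 CPM to 22.3 and 29 in the Pramel7 table (0.82, SE 0.16, edgeR adjusted p = 0.00439, lost at 0.121 without DuxKO replicate 4). In CtbpDKO libraries it read 7.75 and 8.13 CPM, higher than WT together with H19 (log2 0.81, SE 0.15, edgeR adjusted p = 0.00126). In Ctbp-Dux TKO it read 5.64 and 6.86 CPM, lower than DuxKO (log2 -1.53, SE 0.15, edgeR adjusted p = 2.95e-06). DKO-Dppa2 libraries read 2.91 and 3.14 CPM against 4.9 and 4.45 in Dppa2KO (-0.63, SE 0.17, edgeR adjusted p = 0.0109, lost without Dppa2KO replicate 1 or DKO-Dppa2 replicate 1). Pramel7 overexpression lowered Igf2 to 3.71 and 3.89 CPM in WT cells (log2 -1.94, SE 0.19, edgeR adjusted p = 3.05e-05) and to 3.49 and 4.63 CPM in DuxKO cells (-2.66, SE 0.22, edgeR adjusted p = 7.21e-06), where H19 rose. P7KO lowered it to 6.69 and 8.11 CPM (log2 -0.98, SE 0.18, edgeR adjusted p = 0.00391, 0.091 without P7KO replicate 1) with H19 also lower than in each WT library.

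Igf2r, the maternally expressed receptor that clears IGF2, fell in CtbpDKO, Dppa2KO, Ctbp-Dux TKO against DuxKO and both DKO-Dppa2 comparisons, with log2 fold changes from -0.85 to -0.40, the CtbpDKO call being lost without WT replicate 1. Its level was 83.8 and 76.9 CPM in WT and 34.5 and 33.3 CPM in DKO-Dppa2 libraries. In DuxKO-P7OE libraries it read 80.5 and 90.6 CPM against 47.3 and 42 in DuxKO (log2 0.94, SE 0.17, edgeR adjusted p = 0.00204). The smaller rise in P7OE (0.43, edgeR adjusted p = 0.049) was lost under 9 of 15 alternatives. Airn, the noncoding RNA that silences Igf2r on the paternal chromosome, stayed at or under 0.34 CPM.

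Sfmbt2, a Polycomb-group gene imprinted mainly in extraembryonic tissue, rose with Ctbp loss in 3 backgrounds and was below WT in each altered group of the Pramel7 table. Its WT libraries read 4.36 and 4.47 CPM, DuxKO libraries 4.25 and 4.72 and Dppa2KO libraries 5.34 and 6.67. Without Ctbp the same backgrounds read 141 and 158, 124 and 143, and 183 and 171 CPM. The log2 fold changes with Ctbp loss were 5.08 (SE 0.14, edgeR adjusted p = 8.14e-11), 4.89 (SE 0.14, edgeR adjusted p = 6.18e-11) and 4.88 (SE 0.13, edgeR adjusted p = 6.43e-11) in the 3 backgrounds. In the Pramel7 table WT read 27.2 to 35.5 CPM and DuxKO 3.58 and 3.54 CPM (log2 -3.10, SE 0.17, edgeR adjusted p = 7.52e-07). P7OE libraries read 6.61 and 7.73 (-2.09, SE 0.16, edgeR adjusted p = 4.3e-06) and P7KO libraries 9.11 and 8.18 CPM (-1.82, SE 0.16, edgeR adjusted p = 1.83e-05). DuxKO-P7OE libraries read 8.26 and 8.29 CPM, higher than DuxKO (log2 1.22, SE 0.19, edgeR adjusted p = 0.000774). The trophoblast and mesenchyme sums given above were higher in the same groups without Ctbp as Sfmbt2. Within the Pramel7 table the trophoblast sum was in the WT range in DuxKO (41.8 to 44.3 against 34.4 to 58.1 CPM). It was below that range in the other altered groups. The mesenchyme sum was in its WT range in DuxKO-P7OE (3.66 to 4.49 against 3.05 to 5.06 CPM). It was below that range in the other altered groups. The part of these markers in the Sfmbt2 result was not tested.

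Gab1, a docking adaptor of growth factor receptors, rose with Ctbp loss to much the same level in 3 backgrounds. It read 47.3 and 44.5 CPM in WT, 17 and 16.2 in DuxKO and 9.77 and 8.96 in Dppa2KO, and 310 and 326, 296 and 334, and 334 and 309 CPM in the corresponding groups without Ctbp. From these starting levels the log2 fold changes were 2.79 (SE 0.10), 4.25 (SE 0.11) and 5.10 (SE 0.11), with edgeR adjusted p of 7.65e-10, 2.81e-11 and 4.51e-12. In the Pramel7 table WT libraries 3 and 4 read 95 and 103 CPM and WT 5 and 6 read 197 and 207 CPM. DuxKO (14 and 16.9 CPM) and P7KO (14.7 and 15.5 CPM) lay far below both pairs, with log2 fold changes of -3.28 (SE 0.33, edgeR adjusted p = 2.74e-05) and -3.32 (SE 0.32, edgeR adjusted p = 5.4e-05). P7OE libraries, at 100 and 92.4 CPM, lay at the level of WT 3 and 4 and below WT 5 and 6: the log2 fold change was -0.08 against the first pair and -1.09 against the second. DuxKO-P7OE libraries read 150 and 153 CPM (log2 3.29 over DuxKO, SE 0.34, edgeR adjusted p = 4.32e-05).

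Plagl1, a zinc-finger transcription factor, was higher with both a gain and a loss of Pramel7 than in the WT libraries that these comparisons share. Those WT libraries read below every other library of the Pramel7 table. WT libraries 3 to 6 read 0.908, 0.964, 1 and 1.96 CPM, P7OE 9.65 and 12.5, P7KO 3.9 and 4.7, DuxKO 10.2 and 16.4 and DuxKO-P7OE 13.1 and 11.4 CPM. The log2 fold changes over WT were 3.20 in P7OE (SE 0.28, edgeR adjusted p = 1.09e-05), 1.84 in P7KO (SE 0.29, edgeR adjusted p = 0.00155) and 3.48 in DuxKO (SE 0.28, edgeR adjusted p = 6.27e-06). In DuxKO cells overexpression added no call, and the effects of Pramel7 in the 2 backgrounds differed by -3.33 (SE 0.43, edgeR adjusted p = 0.000594). In the genotype table Plagl1 read 3.39 and 4.96 CPM in WT and 13.3 and 11.4 in DuxKO libraries (log2 1.56, SE 0.21, edgeR adjusted p = 0.000248).

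**Figure D4:**
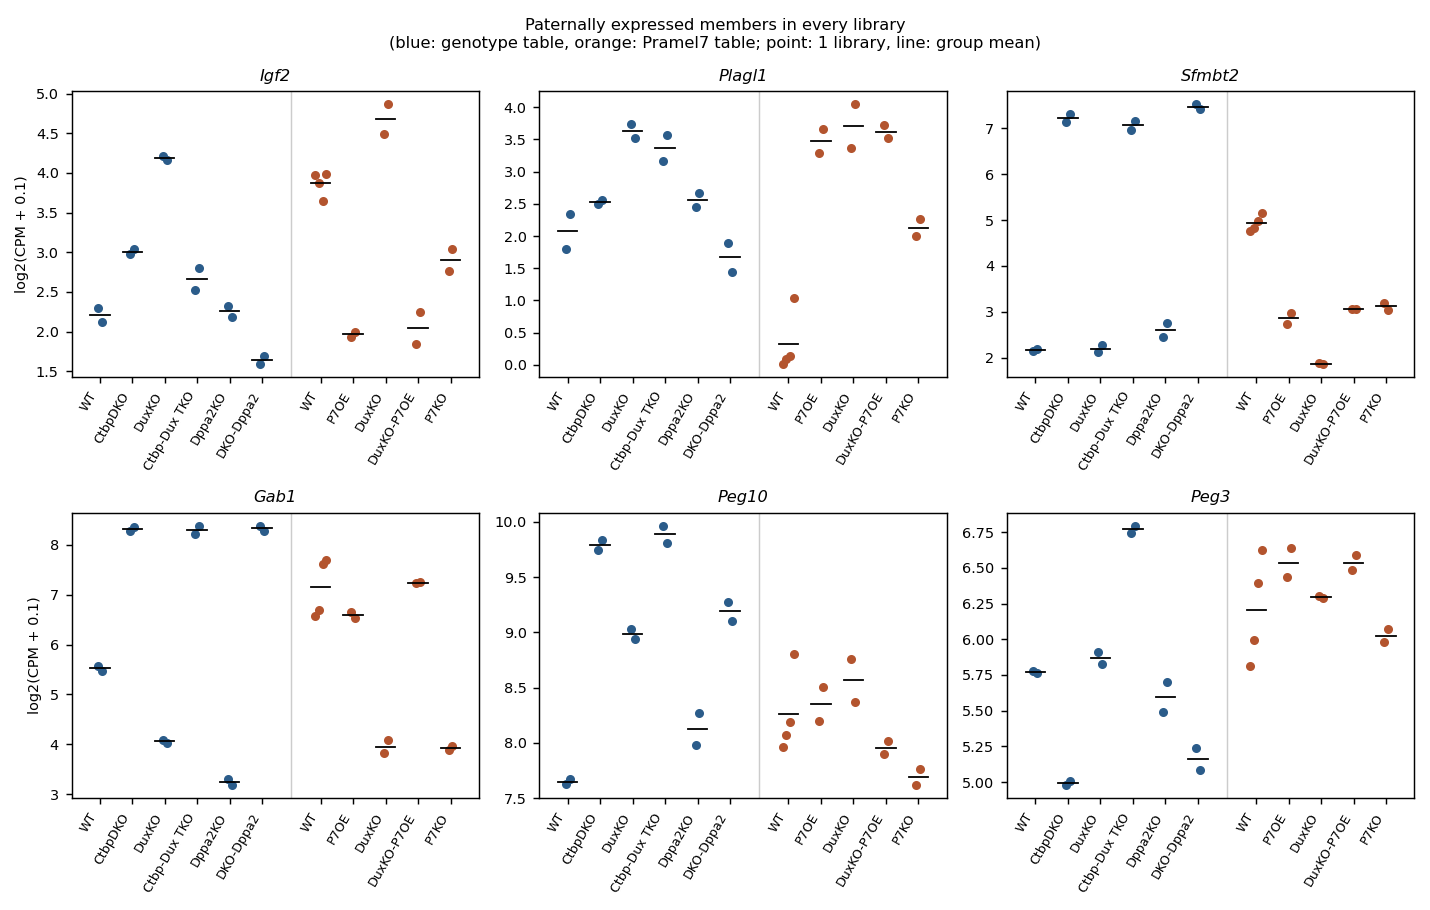
Levels of Igf2, Plagl1, Sfmbt2, Gab1, Peg10 and Peg3 as log2(CPM + 0.1) in each library of the genotype table (blue) and the Pramel7 table (orange), with a line at the group mean. Sfmbt2 and Gab1 lie highest in the 3 groups without Ctbp, Plagl1 lies lowest in WT within the Pramel7 table, and Peg3 lies highest in Ctbp-Dux TKO cells within the genotype table.

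Peg10, a gene derived from a retrotransposon and required for placenta, rose with loss of Ctbp and with loss of Dux. It read 197 and 204 CPM in WT, 859 and 914 in CtbpDKO (log2 2.15, SE 0.11, edgeR adjusted p = 2.24e-08), 524 and 491 in DuxKO (1.34, SE 0.11, edgeR adjusted p = 4.66e-06) and 1000 and 898 in Ctbp-Dux TKO libraries. Dppa2KO libraries read 252 and 308 CPM (log2 0.48, edgeR adjusted p = 0.0094, lost without either WT library or Dppa2KO replicate 2) and DKO-Dppa2 libraries 621 and 550 CPM. It was called in none of the comparisons of the Pramel7 table, where WT ran from 250 to 447 CPM. Sgce, its neighbour encoding epsilon-sarcoglycan, rose from 1.34 and 1.14 CPM to 2.99 and 3.63 in CtbpDKO (log2 1.41, SE 0.25, edgeR adjusted p = 0.000776) and to 4.93 and 3.76 in DuxKO (1.80, SE 0.24, edgeR adjusted p = 0.000234). Its rise in DuxKO of the Pramel7 table (1.61, edgeR adjusted p = 0.0118) was lost at 0.245 without DuxKO replicate 4.

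Peg3, a zinc-finger gene, stood out in cells without both Ctbp and Dux. It read 54.8 and 54.1 CPM in WT, 31.4 and 32 in CtbpDKO (log2 -0.78, SE 0.10, edgeR adjusted p = 4.69e-05), 60 and 56.7 in DuxKO and 107 and 111 in Ctbp-Dux TKO libraries, which rose over CtbpDKO by 1.78 (SE 0.10, edgeR adjusted p = 4.76e-07). The Ctbp effect had opposite signs with and without Dux, and the difference was 1.68 (SE 0.13, edgeR adjusted p = 4.56e-06). Usp29, which shares the Peg3 domain, was not called in any of the 16 comparisons, and Zim1 was called higher in Ctbp-Dux TKO against DuxKO at 1.3 and 0.577 CPM. Gnas, which encodes the stimulatory G protein alpha subunit, fell by about 1 log2 unit with Ctbp loss in each background: -1.01 (SE 0.08), -0.95 (SE 0.08) and -1.03 (SE 0.08), from 106 and 104 CPM in WT to 53.7 and 50.4 in CtbpDKO. These calls had edgeR adjusted p of 9.51e-07, 9.37e-07 and 7.69e-07.

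Mest, an alpha/beta hydrolase family gene, and Copg2, a coatomer subunit gene, share 913 bases of their annotated spans and moved together. Mest read 72.8, 73, 89.2 and 115 CPM in WT libraries 3 to 6, 204 and 197 in DuxKO (log2 1.20, SE 0.17, edgeR adjusted p = 0.000364), 197 and 208 in P7KO (1.21, SE 0.17, edgeR adjusted p = 0.000574) and 141 and 169 in P7OE libraries (0.82, SE 0.17, edgeR adjusted p = 0.00438, 0.0678 without P7OE replicate 2). Copg2, listed as maternally expressed, rose beside it by 0.86, 0.96 and 0.54. The annotation and strand setting of the counting are not given in the sources used here, so reads over the shared bases could be counted for either gene, and the part of this in the shared rise was not tested. In all 9 pairs of members have spans that overlap, including Snrpn with Snurf, Kcnq1ot1 with Kcnq1 and genes such as Zrsr1 and Peg13 with their hosts.

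Nnat, Nap1l5 and Mcts2, which like Zrsr1 and Peg13 lie inside host genes, showed no common response. Nnat, a small membrane protein gene inside Blcap, fell from 2.65 and 3.13 CPM in WT to 0.476 and 0.765 in DuxKO (log2 -2.21, SE 0.41, edgeR adjusted p = 0.0024) and to 0.606 and 1.16 in Dppa2KO (-1.71, SE 0.38, edgeR adjusted p = 0.00919, lost without WT replicate 2 or Dppa2KO replicate 1). With Ctbp loss it rose over DuxKO (2.34, SE 0.41, edgeR adjusted p = 0.000516) and over Dppa2KO (1.85, SE 0.39, edgeR adjusted p = 0.00272). Nap1l5, inside Herc3, read 0.0757, 0.0803, 0.154 and 0.364 CPM in WT libraries 3 to 6 and 0.903 and 0.913 in P7OE libraries (log2 2.43, SE 0.63, edgeR adjusted p = 0.0167), a call lost without either P7OE library and against WT 5 and 6 alone (1.79). Mcts2, inside H13, was called once, higher in Ctbp-Dux TKO (5.94 and 4.24 CPM) than in DuxKO (3.06 and 2.46; log2 0.88, edgeR adjusted p = 0.0166), and not without DuxKO replicate 2 or Ctbp-Dux TKO replicate 1.

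In the Snrpn domain, libraries of one group differed widely for Snrpn itself. Snrpn, which encodes a spliceosomal protein, read 14.3 and 39.3 CPM in Dppa2KO libraries, 41.8 and 11.7 in those of Ctbp-Dux TKO, and 55.8 and 23.2 in DuxKO libraries of the Pramel7 table. Neither it nor Snurf was called in either of these tables. Peg12 rose in DuxKO of the Pramel7 table, from 0.321 to 0.53 CPM in WT to 2.29 and 1.97 (log2 2.39, SE 0.40, edgeR adjusted p = 0.00131). Ube3a, a ubiquitin ligase gene, fell in DuxKO against WT (log2 -0.36) and in DKO-Dppa2 against CtbpDKO (-0.39) and rose in Ctbp-Dux TKO against DuxKO (0.48). Ndn, which encodes necdin, rose from 5 and 4.96 CPM to 10.5 and 9.87 in DuxKO (log2 1.04, SE 0.20, edgeR adjusted p = 0.0034) and was lower in Ctbp-Dux TKO (-1.48, SE 0.21, edgeR adjusted p = 9.42e-05). Magel2, a partner of ubiquitin ligases, fell with Pramel7 overexpression in WT (log2 -1.10, SE 0.29, edgeR adjusted p = 0.0179) and DuxKO cells (-1.30, SE 0.35, edgeR adjusted p = 0.0199), the first lost without either P7OE library and the second without any one library of the comparison. Of the single genes, Impact, a regulator of translation, fell in DuxKO in both tables, by log2 -0.68 (SE 0.09) and -0.76 (SE 0.12). Slc38a4, an amino acid transporter gene, rose by 0.47 and 0.54 in the same comparisons, calls lost without WT replicate 2 or DuxKO replicate 2 in the first and without WT 5 or either DuxKO library in the second. Over the 16 comparisons 41 of the 46 members were called at least once (89.1%) and 24 in 5 or more (52.2%), beside 75.1% and 18.5% of the 18907 genes tested in all 3 tables. Herc3, Mkrn3, Osbpl5, Tssc4 and Usp29 were called in none.

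In the time course 8 of the 46 members tested were called in 1 or more comparisons. The share of all genes called in 1 or more of them was not computed, so this count has no background beside it. From day 0 to day 3, when Ctbp2 counts rose, 5 members rose and 2 fell (2.41% and 2.59% of all genes). From day 3 to day 9, 2 rose and 3 fell (0.524% and 0.592%), from day 9 to day 12, when Ctbp2 counts fell, 1 rose and 2 fell (1.87% and 1.97%), and from day 12 to day 18, 1 rose and 0 fell (0.64% and 0.18%). At day 18, 1 was higher and 1 lower than at day 0 (0.359% and 0.155%). The 7 calls of day 3 became 2 or 3 when any one library of day 0 or 3 was left out, and the 5 of day 9 became 1 to 3. Sfmbt2, the 1 call between day 12 and 18, was lost without either day 12 library or day 18 replicate 2, and both calls between day 0 and 18 were lost without either day 0 library or day 18 replicate 1. H19, Peg13, Zrsr1 and Gab1, which rose with Ctbp loss, were called in no interval.

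Phlda2 fell from 7.91 and 7.15 CPM at day 0 to 3.37 and 2.29 at day 3 (log2 -1.41, SE 0.23, edgeR adjusted p = 0.00327), stayed at 2.67 and 3.27 at day 9 and returned to 7.87 and 7.55 at day 12 (1.38, SE 0.22, edgeR adjusted p = 0.00358, 0.0518 without day 9 replicate 1). Peg3 went from 47 and 44.9 CPM to 64.7 and 58.1, then 98.3 and 92.3 at day 9, and back to 47.7 and 45.5 at day 12 (-1.03, SE 0.10, edgeR adjusted p = 5.53e-05). Slc38a4 rose from 252 and 279 CPM to 400 and 402 at day 3 (0.60, SE 0.11, edgeR adjusted p = 0.0076) read 453 and 508 at day 9 and fell to 280 and 281 at day 12 (-0.78 from day 9, SE 0.11, edgeR adjusted p = 0.00189). At day 12 all 3 genes read close to their day 0 libraries. The day 3 call of Slc38a4 was lost without day 0 replicate 1 or day 3 replicate 1, that of Grb10 without these or day 0 replicate 2, and that of Snrpn without day 0 replicate 2 or day 3 replicate 2. Sfmbt2 fell from 107 and 99.2 CPM through 75.5 and 68.6 to 34 and 34.2 at day 9 (-1.08 from day 3, SE 0.12, edgeR adjusted p = 0.00124) and was still at 40 and 40.5 at day 12 and at 57.7 and 73.3 at day 18. Grb10 rose from 25 and 27.4 to 47.1 and 40.7 CPM at day 3 (0.75, SE 0.15, edgeR adjusted p = 0.0135) and read 56.1 and 37.8 at day 18 (0.84 over day 0, edgeR adjusted p = 0.0275, up to 0.277 with a library left out). Snrpn rose to 30.4 and 39 CPM at day 3 from 20.3 and 13.6 (1.03, SE 0.19, edgeR adjusted p = 0.00702) and fell to 19.1 and 16.5 at day 9. Igf2 rose from day 3 to day 9, from 6.21 and 7.29 to 11.4 and 13.7 CPM (0.89, SE 0.19, edgeR adjusted p = 0.0394), a call lost when any one library was left out. H19 read between 2.79 and 7.34 CPM over the 10 libraries.

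**Figure D5:**
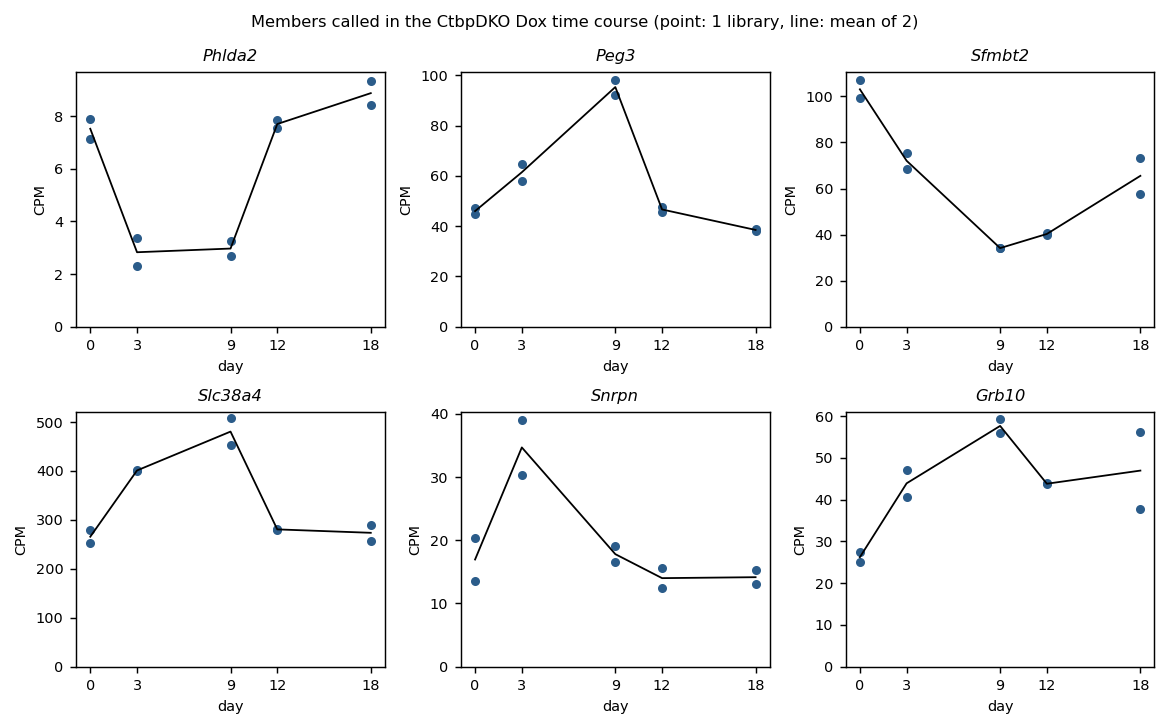
CPM of Phlda2, Peg3, Sfmbt2, Slc38a4, Snrpn and Grb10 against the labelled day in CtbpDKO cells labelled Dox; points are the 2 libraries of a day and lines join their means. Phlda2 is low at days 3 and 9 and back near its day 0 level from day 12, Peg3 and Slc38a4 peak at day 9, and Sfmbt2 stays below day 0 at each later day.

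Genes that keep, set or remove imprints were also followed. Of 22 such genes 10 rose and 4 fell in CtbpDKO against WT, beside 14.7% and 11.4% of all genes. Dnmt3b (log2 1.67, SE 0.09), Dnmt3l (1.60, SE 0.09) and Dnmt3a (1.07, SE 0.08), which take part in setting new methylation, rose. Zfp57 (-0.50, SE 0.09, edgeR adjusted p = 0.0015) and Zfp445 (-1.13, SE 0.14), which keep imprints, fell. Uhrf1 rose by 0.37 (SE 0.08, edgeR adjusted p = 0.00423), and Dnmt1 had -0.12 (SE 0.09, edgeR adjusted p = 0.408). In P7OE against WT 5 of the 22 rose and 4 fell, beside 11% and 8.9% of all genes. Dnmt3a rose by 1.17 (SE 0.12), Dnmt3b (-1.35, SE 0.17) and Dppa3 (-1.91, SE 0.38) fell, and Zfp57, Uhrf1 and Dnmt1 had -0.10, 0.07 and 0.39 with edgeR adjusted p of 0.845, 0.727 and 0.0959. PRAMEL7 is known to act on the UHRF1 protein, which RNA counts do not show. In DuxKO against WT Dnmt3l fell in both tables (-1.55, SE 0.09, and -2.84, SE 0.16). Dnmt3b was also lower in DuxKO libraries of the Pramel7 table, at 40.8 to 51.5 CPM against 264 to 377 CPM in WT. In P7KO Dnmt3a (-1.73, SE 0.14), Dnmt3b (-2.05, SE 0.18) and Dnmt3l (-1.27, SE 0.15) fell and Dppa3 rose (1.40, SE 0.30). In the time course Dnmt3a rose from day 0 to day 3 (1.81, SE 0.12) and fell from day 9 to day 12 (-2.06, SE 0.12). Of the 7 genes of the Dlk1-Dio3 cluster, 4 fell and 1 rose in CtbpDKO (11.4% and 14.7% of all genes), 6 fell in Dppa2KO (8.69%) and 5 fell in P7KO (5.55%).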

How the data were processed

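RNA was sequenced from 34 libraries with a strand-keeping Collibri kit, per the labels' protocols. The deposited values are raw counts of reads per gene, made by the authors with Trim Galore, HISAT2 and featureCounts on mm10, per the submitters' processing notes, which also name Bismark. Versions, annotation and strand setting are not given in the sources used here. Each of the 3 count tables was fitted separately on all its RNA libraries with edgeR 4.0.16 in R 4.3.3, using filterByExpr, TMM factors, group as the only term, the quasi-likelihood test and Benjamini-Hochberg adjustment over all genes tested. A gene was called at an adjusted p under 0.05. CPM used TMM-scaled library sizes, and fitted log2 changes used a prior count of 0.125. Intervals on ratios of summed counts are exact binomial at 95% and cover counting error only, as does the limit of 3 counts for a library at 0. On simulated counts with known changes the script recovered the larger ones, and the smaller ones only in part; a pass mark set for the smaller ones was dropped after this was seen, so a member not called may still differ. DESeq2 1.42.0, relative log expression and upper quartile factors, no low-count filter, a prior count of 2, structural RNA genes left out, only the groups compared, subsets of the WT libraries, the replicate number as a block and leaving out each library were the alternatives.

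A member was named in a comparison when called with an absolute log2 fold change of at least 1, no overlap between libraries and a mean of at least 50 counts in the higher group. Best-known members (H19, Igf2, Igf2r, Airn, Peg3, Peg10, Peg13, Mest, Snrpn, Kcnq1ot1, Cdkn1c, Phlda2, Plagl1, Nnat, Grb10, Zrsr1, Mcts2, Nap1l5, Rasgrf1 and Slc38a4) were named whatever their change, as were Zfp57, Dnmt1, Uhrf1 and Dppa3. Members, lists, rules and tests were chosen with earlier results of these data known. Other members named, the ratios of counts, the markers given one by one and the genes in the plots were picked after the values were seen.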

Additional observations from a re-analysis of the deposited data

Results flagged for a closer look

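For 4 members 1 of the 4 WT libraries of the Pramel7 experiment, not always the same one, stood apart, by a gap that chance exceeds in about 1 in 20 groups. All 46 members tested were searched for such a gap, so some would be found by chance alone. The share over all genes was not computed. Ube3a read 121 CPM in WT 6 against 90.7 to 93.7 in the others. Plagl1 read 1.96 CPM in WT 6 against 0.908 to 1. Grb10 read 249 CPM in WT 5 against 220 to 223. Herc3 read 4.94 CPM in WT 4 against 5.78 to 5.89.

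The effect of Ctbp loss in DuxKO cells minus that in WT cells passed edgeR's test for 15 members. On the log2 scale it was positive for Cdkn1c (4.54), Slc22a18 (3.5), Phlda2 (3.44), Nnat (2.88), Ascl2 (2.30), Peg3 (1.68), Gab1 (1.45), Zrsr1 (1.42), Kcnq1ot1 (1.24), Impact (0.97) and Ube3a (0.65). It was negative for Sgce (-2.38), Igf2 (-2.35), Peg10 (-1.24) and Commd1 (-0.69). The values for Ascl2 and Kcnq1ot1 lost the call under most libraries left out.

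The effect of Ctbp loss in Dppa2KO cells minus that in WT cells passed for 7 members. It was positive for Nnat (2.39) and Gab1 (2.31), and negative for H19 (-3.14), Igf2 (-1.44), Plagl1 (-1.34), Grb10 (-1.14) and Peg10 (-1.08).

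The effect of Pramel7 overexpression in DuxKO cells minus that in WT cells passed for 13 members. It was positive for H19 (8.03, a fitted value from 0 counts in DuxKO that depends on the prior count), Ascl2 (6.15, from 2 counts in each DuxKO library), Phlda2 (5.93), Cdkn1c (4.46), Slc22a18 (4.18), Gab1 (3.94), Sfmbt2 (3.31) and Impact (0.70). It was negative for Plagl1 (-3.33), Sgce (-2.43), Kcnq1ot1 (-1.41), Grb10 (-1.19) and Mest (-1.14).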

How the results depend on the processing

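With 2 libraries a group, counts of called members depended most on single libraries. Leaving out each library in turn gave 12 to 14 members in CtbpDKO against WT, 4 to 6 in Ctbp-Dux TKO against CtbpDKO, 7 to 11 in DKO-Dppa2 against CtbpDKO, 11 to 23 in DuxKO against WT of the Pramel7 table, 8 to 18 in P7OE, 12 to 15 in DuxKO-P7OE, 9 to 18 in P7KO and 8 to 17 for the difference of the Pramel7 effects. In the time course it gave 2 to 3 for day 3, 1 to 3 for day 9 against day 3, 0 to 1 for day 18 against day 12 and 0 to 4 for day 18 against day 0 (edgeR throughout). Without the low-count filter the difference of the Ctbp effects with and without Dppa2 held 11 members, and the last 3 time comparisons 6 (day 12 against day 9), 2 (day 18 against day 12) and 5 (day 18 against day 0). Fitting only the groups compared gave 11 members in P7OE, 3 for day 9 against day 3, 5 for day 12 against day 9 and 0 for both day 18 comparisons. DESeq2 gave 4 for day 18 against day 0. With WT 3 and 4 as the only WT libraries, 22 members differed in the Pramel7 effect. Of 6537 values for single members, 6180 kept their side of the threshold, 236 lost a call, 121 gained one and 0 reversed a call. The total includes fits with a prior count of 2, which alters the fitted change and not the test, so these could not lose a call. A value without an adjusted p was also counted as kept unless a call changed direction.

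With the replicate number as a block, 16 members were called in CtbpDKO and 19 in DuxKO against WT, 6 in Ctbp-Dux TKO and 14 in DKO-Dppa2 against CtbpDKO, 7 at day 3 and 5 at day 9. No count moved by over 1.5 times. Libraries sharing a number correlated between -0.1 and 0.09 in their deviations from the group means. The WT and DuxKO libraries of the Pramel7 table were not part of this. With 2 libraries a group, such correlations cannot settle whether the numbers pair libraries.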
